A study of Mus musculus with 12 samples.

Results

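Markers of hepatic stellate cells and portal fibroblasts, the liver's main sources of collagen-producing myofibroblasts, were followed in livers of mice lacking Abcb4, the canalicular transporter that puts phosphatidylcholine into bile. The set held 10 genes, taken as every gene probe whose name in the scanner files was a member: 6 grouped as activated or fibroblast markers (Acta2, Tagln, Vim, Pdgfra, Pdgfrb and Thy1) and 4 grouped as quiescent markers (Lrat, Reln, Des and Cygb). They were represented by 20 of the 41174 gene probes on the arrays, of which 13 were bright enough to be tested, at least 1 for each gene. Each gene is described by the brightest of its tested probes, and further probes are given beside it.

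The groups were Abcb4-/- mice given CA for 9 weeks and Abcb4-/- mice given UDCA for 9 weeks, each set against Abcb4 +/+ livers on the same 2-colour arrays, with 6 arrays per diet. CA is cholic acid, fed to raise disease activity, and UDCA is ursodeoxycholic acid, fed to lower it. Each diet group had 5 livers, so 2 of its 6 arrays carry the same liver with the dyes exchanged. The labels do not say which 2 these are, so p-values treat as separate some arrays that are not. What the wild-type mice were fed is not in the labels, and every knockout received a bile acid, so genotype and diet cannot be told apart in a ratio to wild type. No strain, sex, age or dose is given either. The diets never met on an array, and their difference is the ratio to wild type under CA minus that under UDCA.

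In healthy liver the stellate cell lies between hepatocytes and sinusoidal endothelium and stores vitamin A as retinyl ester, which LRAT makes. On injury it loses its droplets, gains PDGF receptors and takes on a contractile cytoskeleton. Portal fibroblasts surround the bile ducts and can also become myofibroblasts, above all in cholestatic disease. Total RNA of whole liver was measured here, so more cells of a type and more RNA per cell cannot be told apart.

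Acta2 is the usual marker of the myofibroblast, and the letters of the 60-base probe that carries its result are shown because its probes disagreed. They lie on the minus strand of chromosome 19 (mm7), between 33949738 and 33952992, a span of 3255 bases, so the probe joins coding exons across an intron. It shared at most 17 bases in a row with any probe of another gene. Only the probes on the array were compared, not whole transcripts, so its specificity among the actins was not tested.
Acta2 probe: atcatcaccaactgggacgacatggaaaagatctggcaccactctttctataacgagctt

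Promoter sequence is printed for a pair of activated markers, Acta2 and Vim, and for a pair of quiescent markers, Lrat and Reln, so that the letters before their starts can be set side by side. RefSeq promoters (GRCm38.p6) were found for 6 of the 10 genes, with those of Des and Pdgfra not printed. Each line gives the 250 bases before the transcript start, 5′ to 3′ on the gene's strand, at chr19:34255374-34255623 (minus) for Acta2, chr2:13574061-13574310 (plus) for Vim, chr3:82903975-82904224 (minus) for Lrat and chr5:22344706-22344955 (minus) for Reln. Capitals mark matches found on either strand to 5 motifs. The first is the CArG box, the element of serum response factor, searched strictly and in a relaxed form with 1 core letter replaced by G or C. The MCAT element was searched as CATTCC and the E-box of muscle promoters as CAGCTG. The TATA box, found near many start sites, was searched as TATAAA. The GC box, which Sp1 binds, was searched as GGGCGG. No match overlapped another motif's match.
Acta2 promoter: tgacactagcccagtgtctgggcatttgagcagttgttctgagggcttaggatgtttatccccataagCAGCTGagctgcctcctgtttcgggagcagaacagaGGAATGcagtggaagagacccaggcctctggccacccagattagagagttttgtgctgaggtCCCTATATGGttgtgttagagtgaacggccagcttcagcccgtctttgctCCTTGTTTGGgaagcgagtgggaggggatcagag
Vim promoter: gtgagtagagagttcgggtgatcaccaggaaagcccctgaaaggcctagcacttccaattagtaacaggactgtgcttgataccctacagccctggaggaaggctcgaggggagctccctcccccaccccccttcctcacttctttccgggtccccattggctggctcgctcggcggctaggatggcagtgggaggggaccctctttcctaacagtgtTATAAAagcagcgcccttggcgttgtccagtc
Lrat promoter: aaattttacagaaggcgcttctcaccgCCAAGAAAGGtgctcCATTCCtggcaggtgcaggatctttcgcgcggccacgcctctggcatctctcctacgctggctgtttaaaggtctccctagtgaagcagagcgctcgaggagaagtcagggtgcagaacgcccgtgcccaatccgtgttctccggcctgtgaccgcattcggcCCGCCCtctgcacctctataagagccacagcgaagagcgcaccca
Reln promoter: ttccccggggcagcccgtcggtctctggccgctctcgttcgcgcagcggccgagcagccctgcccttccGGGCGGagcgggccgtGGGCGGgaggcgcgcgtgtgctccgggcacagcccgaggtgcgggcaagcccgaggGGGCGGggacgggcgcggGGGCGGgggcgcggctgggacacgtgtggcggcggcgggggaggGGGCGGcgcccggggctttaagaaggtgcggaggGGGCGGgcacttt

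The Acta2 window held no strict CArG box and 2 relaxed ones, which begin 84 and 34 bases before the start. It also held an MCAT element beginning 146 bases and an E-box beginning 182 bases before the start. The Vim window held a TATA box beginning 32 bases before the start, and the Reln window held 6 GC boxes. In the Lrat window stood 1 relaxed CArG box, 1 MCAT element and 1 GC box. Among 32851 mouse promoter windows of the same length, 1.47% held a strict CArG box, 7.24% a relaxed one, 12.6% an MCAT element, 13% the E-box, 12.4% the TATA box and 32.7% a GC box. These matches are letters in a window, and whether they are bound was not measured here.

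Spots well above background made up 41.6% to 68.4% of all spots in the green channel and 31.6% to 62.4% in the red channel. All log2 ratios are knockout over wild type after background correction and loess within each array. The 2 probes for Abcb4 gave estimates of -0.73 (adjusted p = 0.00699) and -2.73 (adjusted p = 4.32e-08) under CA, and of -1.28 (adjusted p = 0.000320) and -1.77 (adjusted p = 1.82e-05) under UDCA. The first of them stood above 0 on CA array 1 and UDCA array 2, and the second was below 0 on all 12 arrays. The labels do not say where the deleted part of the gene lies relative to the probes. Estimates are limma's from 1 fit of all 12 arrays. Standard errors rest on 1 spread per probe, shared by both diets and moderated over all probes. They do not show the spread within a diet, which for Vim was an SD of 0.78 under CA and 0.31 under UDCA. "Called" means a Benjamini-Hochberg adjusted p under 0.05 over all 21688 probes tested.

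**Figure D1:**
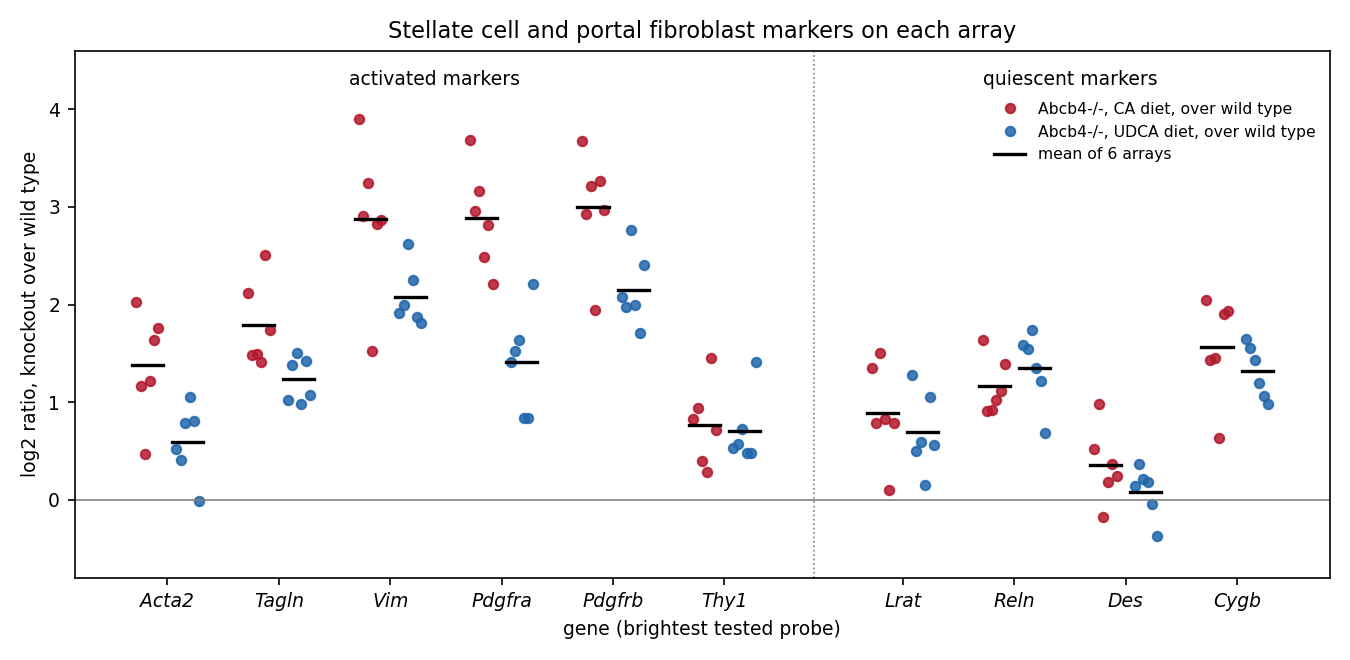
Log2 ratio, knockout over wild type (vertical axis), of the brightest tested probe of each of the 10 marker genes on each array. Red points are the 6 Abcb4-/- CA arrays and blue points the 6 Abcb4-/- UDCA arrays, with a bar at the mean. Pdgfra is the gene for which every CA array stands above every UDCA array, while the points of the other genes overlap.

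Acta2 encodes alpha smooth muscle actin, which gives the myofibroblast its contractile bundles. On the probe across the intron its log2 ratio ran from 0.47 to 2.02 on the CA arrays, with a median of 1.42, and from -0.01 to 1.05 on the UDCA arrays, with a median of 0.66. The diets overlapped, with CA array 3 lowest among the CA arrays and UDCA array 6 at the level of wild type. Acta2 rose in CA knockouts by 1.38 ± 0.17 (SE), or 2.60-fold (adjusted p = 6.57e-06), and in UDCA knockouts by 0.59 ± 0.17, or 1.51-fold (adjusted p = 0.0198). The UDCA call was lost without UDCA array 1, 3, 4 or 5 (adjusted p between 0.0539 and 0.0774). It was also lost with the slide as a random block (0.52, adjusted p = 0.0610), with the slide as a fixed block (0.48, adjusted p = 0.0675) and with median centring (1.09, adjusted p = 0.187). The CA ratio exceeded the UDCA ratio by 0.78 ± 0.24 (adjusted p = 0.0272, 95% interval 0.27 to 1.30).

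A further Acta2 probe, printed in 10 spots on each array and placed at 33942803 to 33942862 of chromosome 19 (mm7), did not follow the first. Its values ran from -0.54 to 1.12 on the CA arrays (median 0.46) and from -0.11 to 1.51 on the UDCA arrays (median 0.40), so each diet had arrays on both sides of 0. The estimates were 0.33 ± 0.24 under CA (adjusted p = 0.255) and 0.56 ± 0.24 under UDCA (adjusted p = 0.116), and neither passed. The spots of this probe lay close together, with a median SD of 0.13 within an array against an SD between arrays of 0.74 under CA and 0.65 under UDCA. Across the 12 arrays, of which 2 per diet share a liver, the 2 probes had a correlation of 0.01, made of 0.63 over the CA arrays and -0.53 over the UDCA arrays. Averaging the probes of a gene left a diet difference of 0.28 for Acta2 (adjusted p = 0.409). The 3 other Acta2 probes were too dim to be tested.

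The other actins were looked at because of this disagreement, after its values were seen. Actb, the cytoplasmic beta actin, rose by 1.16 in CA knockouts (adjusted p = 7.33e-07) and by 0.37 in UDCA knockouts (adjusted p = 0.0314). Actg2, the enteric smooth muscle actin, rose by 0.67 in CA knockouts (adjusted p = 0.000794) and stood at 0.12 under UDCA (adjusted p = 0.613). Actc1, the cardiac actin, rose by 0.46 in CA knockouts (adjusted p = 0.00214) and stood at 0.20 under UDCA (adjusted p = 0.218). Over the 12 arrays the first Acta2 probe had a correlation of 0.81 with Actb, 0.90 with Actg2 and 0.70 with Actc1. The further probe had one of -0.02 with Actb, 0.20 with Actg2 and 0.46 with Actc1. The part of other actins in the signal of an Acta2 probe was not tested.

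**Figure D2:**
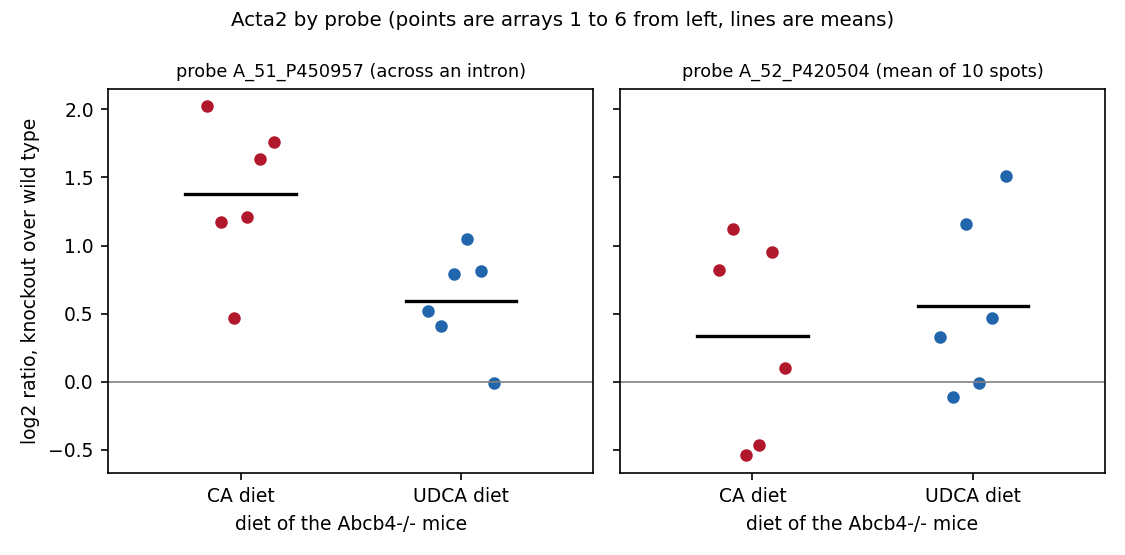
Log2 ratio, knockout over wild type (vertical axis), of the 2 tested Acta2 probes on each array, the brighter probe on the left and the 10-spot probe on the right. Points are arrays 1 to 6 in order, red for Abcb4-/- CA and blue for Abcb4-/- UDCA, and bars are means. UDCA array 6 is lowest of its diet on the brighter probe at -0.01 and highest on the 10-spot probe at 1.51.

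Tagln encodes transgelin (SM22), an actin-binding protein of smooth muscle and an early myofibroblast marker. Its probe lies at 45888137 to 45888196 of chromosome 9, minus strand (mm7, as for all probes). Its log2 ratio ran from 1.41 to 2.51 on the CA arrays (median 1.62) and from 0.98 to 1.51 on the UDCA arrays (median 1.23), all above 0 with the diets overlapping. Tagln rose by 1.79 ± 0.14 in CA knockouts, or 3.46-fold (adjusted p = 4.94e-08), and by 1.23 ± 0.14 in UDCA knockouts, or 2.35-fold (adjusted p = 1.21e-05). The difference of 0.56 ± 0.20 was called (adjusted p = 0.0475, 95% interval 0.14 to 0.98). A further Tagln probe gave the same directions, at 1.13 under CA (adjusted p = 2.03e-05) and 0.56 under UDCA (adjusted p = 0.0166), with a difference of 0.57 that did not pass (adjusted p = 0.0722).

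Vim encodes vimentin, the intermediate filament protein of mesenchymal cells, and its probe lies at 13521763 to 13521822 of chromosome 2, plus strand. The CA arrays ran from 1.52 to 3.90 with a median of 2.89, and the UDCA arrays from 1.81 to 2.62 with a median of 1.96. CA array 4 was the lowest of all 12, below every UDCA array, while the other 5 CA arrays stood above every UDCA array. Vim rose by 2.88 ± 0.18 in CA knockouts, or 7.35-fold (adjusted p = 7.40e-09), and by 2.08 ± 0.18 in UDCA knockouts, or 4.22-fold (adjusted p = 1.09e-06). Its difference was 0.80 ± 0.26 (adjusted p = 0.0338, 95% interval 0.24 to 1.35). The knockout signal was saturated on 3 CA arrays, and leaving out saturated spots gave 3.25 under CA and a difference of 1.17 (adjusted p = 0.00731).

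Des encodes desmin, the muscle intermediate filament protein that marks rodent stellate cells. Its probe, at 75593023 to 75593248 of chromosome 1 on the plus strand, passed the brightness filter through the CA knockout channel, where 5 of 6 arrays stood well above background, and so had an advantage in that comparison. Des ratios were low, from -0.17 to 0.98 on the CA arrays (median 0.30) and from -0.37 to 0.36 on the UDCA arrays (median 0.16). The diets overlapped widely and both reached below 0. Des rose by 0.35 ± 0.13 in CA knockouts, or 1.28-fold (adjusted p = 0.0249), and its estimate under UDCA was 0.08 ± 0.13 (adjusted p = 0.698). The CA call was lost without CA array 1, 2, 5 or 6 (adjusted p between 0.0522 and 0.118), and with the slide as a fixed block (0.20, adjusted p = 0.261). It was lost too with median centring (0.44, adjusted p = 0.125) and with the scanner's processed ratios (0.78, adjusted p = 0.0566).

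The PDGF receptors had the largest changes among the markers, together with Vim. Pdgfra, the alpha receptor, is borne by stellate cells and fibroblasts alike, and its probe lies at 74616116 to 74616175 of chromosome 5, plus strand. Its log2 ratio ran from 2.21 to 3.69 on the CA arrays (median 2.89) and from 0.83 to 2.21 on the UDCA arrays (median 1.46). Every CA array stood above every UDCA array, the lowest CA and the highest UDCA array being equal to 2 decimals. Of the 14207 genes measured on all 12 arrays, 7.01% showed such a separation in the same direction and 3.16% in the opposite one. Pdgfra rose by 2.89 ± 0.17 in CA knockouts, or 7.40-fold (adjusted p = 2.85e-09), and by 1.41 ± 0.17 in UDCA knockouts, or 2.65-fold (adjusted p = 1.86e-05). The difference of 1.48 ± 0.24 was the largest of the 10 genes (adjusted p = 0.000489, 95% interval 0.98 to 1.98).

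Pdgfrb, the beta receptor, is the chief receptor for the PDGF-BB that drives stellate cells to divide and migrate, with its probe at 61474380 to 61474439 of chromosome 18, plus strand. The CA arrays ran from 1.94 to 3.68 (median 3.09) and the UDCA arrays from 1.70 to 2.76 (median 2.04). CA array 4 again stood lowest among the CA arrays, inside the UDCA range, and no other CA array did. Pdgfrb rose by 3.00 ± 0.17 in CA knockouts, or 8.0-fold (adjusted p = 1.98e-09), and by 2.15 ± 0.17 in UDCA knockouts, or 4.45-fold (adjusted p = 3.27e-07). The difference was 0.85 ± 0.23 (adjusted p = 0.0156, 95% interval 0.35 to 1.35), and 1.0 without saturated spots (adjusted p = 0.0159).

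Thy1, a surface glycoprotein of portal fibroblasts that mouse T cells also carry, changed least among the activated markers in CA knockouts. Its tested probe lies at 43982862 to 43982921 of chromosome 9, plus strand. It ran from 0.28 to 1.45 on the CA arrays (median 0.77) and from 0.48 to 1.41 on the UDCA arrays (median 0.55), with the diets overlapping almost wholly. UDCA array 6 stood apart at 1.41 from the other 5 UDCA arrays. Thy1 rose by 0.77 ± 0.15 in CA knockouts (adjusted p = 0.000423) and by 0.70 ± 0.15 in UDCA knockouts (adjusted p = 0.00294), and the difference of 0.07 ± 0.21 did not pass (adjusted p = 0.838, 95% interval -0.38 to 0.52). Of all genes tested, 37.8% were called higher and 22.4% lower under CA, and 17.2% higher and 8.77% lower under UDCA. Of 6 T cell genes tested, 4 rose and 1 fell in CA knockouts and 1 rose in UDCA knockouts. Their median per array ran from 0.20 to 0.67 under CA and from 0.08 to 0.27 under UDCA, highest of the UDCA arrays on array 6. That array was also the highest of its diet for the other portal fibroblast genes (median 1.34, next 0.79), the cholangiocyte genes (1.83, next 1.15), the PDGF genes (1.55, next 0.97) and the contractile genes (0.70, next 0.48). It was not the highest for the macrophage genes (0.68, highest 1.09) or the intermediate filament genes (0.45, highest 1.02). For the quiescent markers it was the lowest of its diet (0.62), as it was for Acta2 and Vim. The part of any of these gene lists in the Thy1 values was not tested.

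Lrat, the retinol esterifying enzyme and the most specific marker of the quiescent stellate cell, was higher in the knockouts of both diets on the brighter of its probes, at 82997855 to 82997914 of chromosome 3, minus strand. Its log2 ratio ran from 0.10 to 1.50 on the CA arrays (median 0.80) and from 0.15 to 1.28 on the UDCA arrays (median 0.58), above 0 on all 12 with the diets overlapping. Lrat rose by 0.89 ± 0.15 in CA knockouts, or 1.85-fold (adjusted p = 0.000137), and by 0.69 ± 0.15 in UDCA knockouts, or 1.61-fold (adjusted p = 0.00365). The UDCA call was lost with median centring (1.07, adjusted p = 0.0709). The difference was 0.20 ± 0.21 (adjusted p = 0.522, 95% interval -0.26 to 0.66). A further, dimmer Lrat probe passed the filter through the CA knockout channel and gave 0.23 under CA (adjusted p = 0.144) and 0.14 under UDCA (adjusted p = 0.517), neither called.

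Reln encodes reelin, an extracellular glycoprotein known from neuronal migration that stellate cells make in liver, and its probe lies at 20922621 to 20922680 of chromosome 5, minus strand. It ran from 0.91 to 1.64 on the CA arrays (median 1.07) and from 0.68 to 1.74 on the UDCA arrays (median 1.45), all above 0 and overlapping. Reln rose by 1.17 ± 0.13 in CA knockouts, or 2.24-fold (adjusted p = 1.79e-06), and by 1.35 ± 0.13 in UDCA knockouts, or 2.55-fold (adjusted p = 2.10e-06). It was the only 1 of the 10 genes whose estimate was lower under CA, with a difference of -0.19 ± 0.18 that did not pass (adjusted p = 0.474, 95% interval -0.57 to 0.20).

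Cygb encodes cytoglobin, an oxygen-binding globin of stellate cells, and its probe lies at 116754778 to 116754837 of chromosome 11, minus strand. It ran from 0.63 to 2.05 on the CA arrays (median 1.68) and from 0.98 to 1.65 on the UDCA arrays (median 1.32). The lowest value was that of CA array 4, and the diets overlapped. Cygb rose by 1.57 ± 0.15 in CA knockouts, or 2.96-fold (adjusted p = 3.98e-07), and by 1.31 ± 0.15 in UDCA knockouts, or 2.49-fold (adjusted p = 1.21e-05). The difference of 0.25 ± 0.21 did not pass (adjusted p = 0.400, 95% interval -0.20 to 0.70).

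Of the 7 probes not tested, 3 were for Acta2 and 1 each for Pdgfra, Reln, Thy1 and Vim. Where the wild-type signal was not well above background on any array, the knockout mean was set over the higher of the background floor and the wild-type signal. That mean includes knockout arrays not well above background, so the value is no strict lower bound. Under CA it was 1.16-fold for the dim Pdgfra probe and 1.13-fold for the dim Thy1 probe. Each was well above background on 4 of the 6 CA knockout arrays, with a ratio above 0 on 5 of the 6. Under UDCA it was 1.12-fold for a dim Acta2 probe, well above background on 3 of the 6 knockout arrays, with a ratio above 0 on 3.

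The members are read here by gene, with the shares of all genes beside them. All 10 genes were called higher in CA knockouts, where 37.8% of the 15373 genes tested were called higher and 22.4% lower. In UDCA knockouts 9 of 10 were called higher, all but Des, against 17.2% of genes called higher and 8.77% lower. By probe the shares called were 34.2% higher and 25.4% lower under CA and 15.1% higher and 8.39% lower under UDCA. Called higher in both diets were 9 of the 10 markers and 14.6% of all genes. On every CA array 9 of the 10 stood above 0, as did 30.7% of genes, and on every UDCA array 8 of the 10, as did 19.3% of genes. Such counts hold the advantage of Des in the filter noted above. The median log2 ratio of the 10 genes was 1.47 under CA and 1.27 under UDCA, beside 0.10 under CA and 0.04 under UDCA for all genes tested. Another normalization, centring on each array's median in place of loess, moved the median of all probes to 0.23 under CA and 0.29 under UDCA. Relative to that shift 10 of the 10 genes stood higher under CA and 9 of 10 under UDCA. The median of the 10 genes was then 1.73 under CA and 1.73 under UDCA. Loess followed by scaling the arrays to a common spread gave 1.31 under CA and 1.46 under UDCA. Which diet had the higher median thus depended on the normalization.

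Between the diets 5 of 10 genes were called higher under CA and 0 lower, with 18.8% of all genes called higher and 8.88% lower (by probe, 16.4% and 10.5%). The 5 were Acta2, Tagln, Vim, Pdgfra and Pdgfrb, all of them among the 6 activated markers, and 0 of the 4 quiescent markers were called. The median difference was 0.79 for the activated markers and 0.23 for the quiescent ones, beside 0.08 for all genes. These calls did not hold equally well. Median centring ended all of these calls but that of Pdgfra, with larger standard errors. It gave 0.57 ± 0.65 for Acta2, 0.44 ± 0.51 for Tagln, 0.66 ± 0.59 for Vim and 0.70 ± 0.46 for Pdgfrb. Scaling the arrays to a common spread left Pdgfra called at 0.95, and ended the calls of Acta2 at 0.51 (adjusted p = 0.160), Tagln at 0.17 (adjusted p = 0.608), Vim at 0.13 (adjusted p = 0.797) and Pdgfrb at 0.19 (adjusted p = 0.672).

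Leaving out 1 array at a time kept the difference called in 12 of 12 fits for Pdgfra and for Pdgfrb. Acta2 lost it without CA array 1, 5 or 6 or UDCA array 1 or 2 (adjusted p between 0.0524 and 0.0592). Tagln lost it without CA array 1, 5 or 6 or UDCA array 1, 2, 4, 5 or 6 (adjusted p between 0.0587 and 0.109). Vim lost it without CA array 1, 3, 5 or 6 or UDCA array 1, 2 or 5 (adjusted p between 0.0535 and 0.0866). Both diets were carried by 2 slides, each with 1 CA array only, so values within a slide have no spread on the CA side. On slide 3 the diets also differed in dye orientation, and the fitted dye effect was removed. The difference within these slides had the same sign for all 5 genes. It was 0.99 and 0.82 for Acta2 (slide 3 first, then slide 4), 1.29 and 0.43 for Tagln, 1.44 and 0.81 for Vim, 1.85 and 1.27 for Pdgfra and 1.63 and 0.94 for Pdgfrb. With the slide as a fixed block, a fit whose diet contrast rests on the same 2 slides, the differences of Acta2 (0.76, adjusted p = 0.131) and Tagln (0.87, adjusted p = 0.110) did not pass. Those of Vim (1.31, adjusted p = 0.0459), Pdgfra (1.62, adjusted p = 0.00347) and Pdgfrb (1.57, adjusted p = 0.00902) did. Of the quiescent markers, Lrat was at -0.37 and 0.33 and Reln at -0.19 and 0.05 in those slides, so their signs were mixed, while Des was at 0.36 and 0.21 and Cygb at 0.61 and 0.80.

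**Figure D3:**
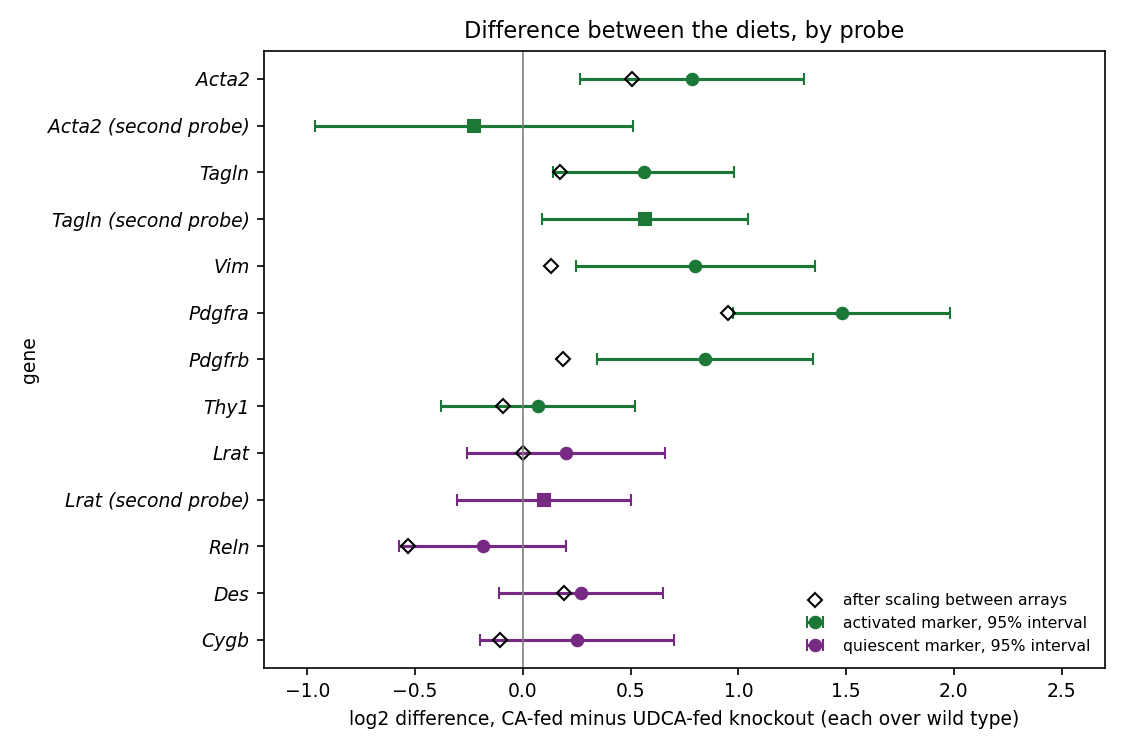
Difference between the diets, the CA log2 ratio to wild type minus the UDCA one (horizontal axis), for the 10 marker genes, by probe, with the limma estimate and its 95% interval (circles for the brightest tested probe, squares for a further one, green for activated and purple for quiescent markers). Open diamonds are the estimates after scaling between arrays. Pdgfra lies highest at 1.48. The intervals of Thy1, of the 4 quiescent markers and of the further Acta2 probe (at -0.23) cross 0.

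The activated and quiescent markers were then compared within each array, as the median of the 6 activated genes minus the median of the 4 quiescent ones. Under CA this score averaged 1.23 ± 0.42 (SD over 6 arrays), and ran from 0.74 to 1.93. Under UDCA it averaged 0.36 ± 0.41 and ran from -0.21 to 0.99. Counting only probes above background in both channels on all arrays, it averaged 0.57 under CA and 0.050 under UDCA. That filter dropped Pdgfra and Des and left 8 genes, so these scores compare other gene groups than those above. Activated markers exceeded quiescent ones on all CA arrays and on all UDCA arrays but array 1, and the diets overlapped, with UDCA array 6 at 0.99 above CA arrays 4 and 6. The quiescent median hardly separated the diets, from 0.73 to 1.49 with a mean of 1.03 under CA and from 0.62 to 1.43 with a mean of 0.97 under UDCA. The activated median averaged 2.26 under CA (1.47 to 2.90) and 1.33 under UDCA (1.02 to 1.61). The score rests on which genes are counted. With Acta2 and Tagln against Lrat and Reln alone it averaged 0.56 under CA and -0.11 under UDCA.

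**Figure D4:**
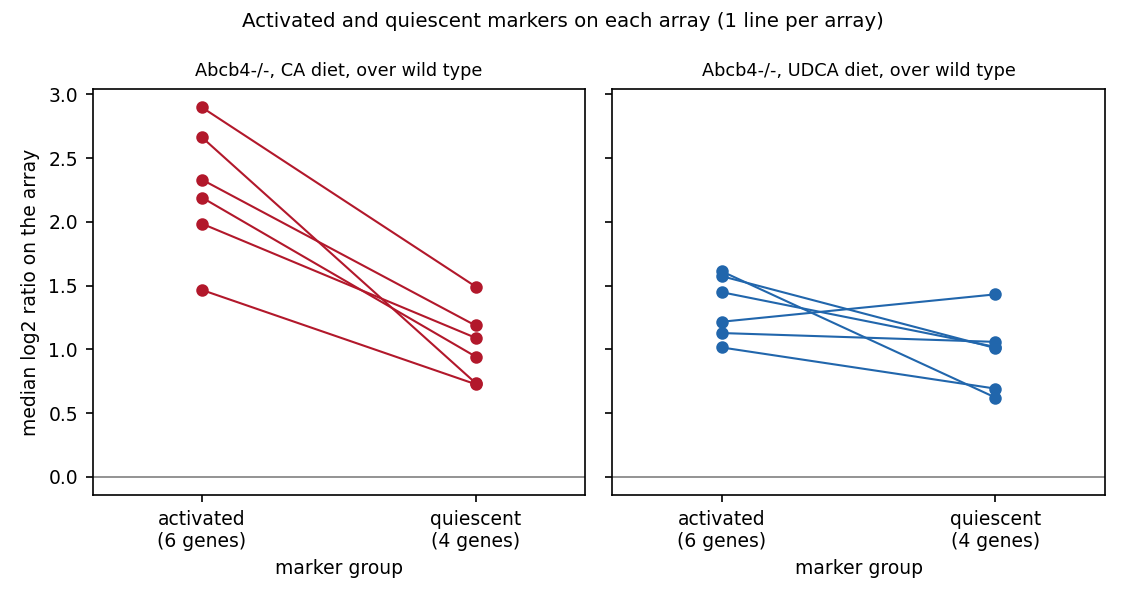
Median log2 ratio, knockout over wild type (vertical axis), of the 6 activated markers and of the 4 quiescent markers, joined by 1 line per array, with Abcb4-/- CA arrays on the left in red and Abcb4-/- UDCA arrays on the right in blue. The activated medians average 2.26 under CA and 1.33 under UDCA. The line falls from activated to quiescent on all 6 CA arrays, and climbs on UDCA array 1, where the score is -0.21.

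After the dye effect was removed, the activated markers moved together across the 12 arrays, with a median correlation of 0.65 over their 15 pairs and a highest value of 0.92, for Vim with Pdgfrb. Within the CA arrays the median over the pairs was 0.56, and within the UDCA arrays it was -0.02. The 24 pairs of an activated with a quiescent marker had a median of 0.23 over all arrays, 0.22 within the CA arrays and -0.24 within the UDCA arrays. The 6 quiescent pairs had a median of 0.02. Within the CA arrays the quiescent pairs had a median of 0.10 and within the UDCA arrays one of 0.20. Each diet had 6 arrays from 5 livers, 1 of them measured with both dyes, so not all points are separate livers. All points share the array processing.

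Other genes of stellate cells were read from a list of their own. For this list and those below, the shares of all genes were 37.8% called higher and 22.4% lower under CA. Under UDCA they were 17.2% and 8.77%, and between the diets 18.8% and 8.88%. Of 23 stellate cell genes tested, 17 rose and 1 fell in CA knockouts and 11 rose and 2 fell in UDCA knockouts. Their medians were 0.99 under CA and 0.42 under UDCA. Between the diets 8 were called higher under CA and 1 lower. Spon2, a matrix protein, rose by 2.85 in CA knockouts (adjusted p = 2.44e-09) and by 2.80 in UDCA knockouts (adjusted p = 3.16e-08). Adamts2, which trims procollagen, rose by 2.27 in CA knockouts and 1.56 in UDCA knockouts. Loxl1, which crosslinks elastin, rose by 2.08 in CA knockouts and 1.29 in UDCA knockouts. Angptl6, an angiopoietin-like secreted protein, fell by 2.19 in CA knockouts (adjusted p = 5.54e-10) and by 1.29 in UDCA knockouts (adjusted p = 2.43e-07).

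Portal fibroblast genes other than Thy1 rose in 14 of 16 cases under CA and in 10 of 16 under UDCA, and 0 fell. Their medians were 1.17 under CA and 0.78 under UDCA, and 7 were called higher under CA than under UDCA. Lum, a collagen-binding proteoglycan, had the largest rise at 3.82 in CA knockouts (adjusted p = 1.55e-09) and 2.73 in UDCA knockouts (adjusted p = 2.51e-07). Cd34, a sialomucin that fibroblasts share with vessels, rose by 3.12 under CA and 1.82 under UDCA, and Mfap4, of elastic fibres, by 2.98 under CA and 1.67 under UDCA. Entpd2, the ectonucleotidase of portal fibroblasts, rose by 2.50 under CA and 2.09 under UDCA, with a diet difference of 0.40 that did not pass (adjusted p = 0.125). Fbln1, a basement membrane fibulin, rose by 2.59 in CA knockouts and by 0.95 in UDCA knockouts, a called difference of 1.64 (adjusted p = 0.00177).

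Contractile genes beyond Acta2 and Tagln were higher in 11 of 17 cases under CA and in 7 of 17 under UDCA, with 0 lower and medians of 0.70 under CA and 0.33 under UDCA. Cnn2, a calponin found outside muscle too, rose by 2.23 under CA and 0.74 under UDCA, and Myl9, a myosin light chain, by 1.33 under CA and 0.86 under UDCA. The tropomyosin Tpm1 rose by 1.37 under CA and 1.53 under UDCA, and Tpm4 by 1.14 under CA and 1.19 under UDCA. Flna, an actin crosslinker, rose by 1.29 under CA and 1.52 under UDCA. None of these last 3 had a called diet difference. A pair of genes of differentiated smooth muscle, picked after their values were seen, did not pass, with Myh11 at -0.11 under CA (adjusted p = 0.415) and -0.02 under UDCA (adjusted p = 0.910), and Cnn1 at 0.17 under CA (adjusted p = 0.381) and 0.29 under UDCA (adjusted p = 0.228).

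All 4 PDGF ligand genes rose in CA knockouts, and 3 of the 4 in UDCA knockouts. Pdgfc was higher by 2.50 in CA knockouts and 1.66 in UDCA knockouts, and Plat, the protease that activates PDGF-CC, by 2.49 in CA knockouts and 1.74 in UDCA knockouts. Pdgfb rose by 2.49 under CA and 0.79 under UDCA, with a called diet difference of 1.69 (adjusted p = 0.00163), and Pdgfa by 1.64 under CA and 1.34 under UDCA. Pdgfd rose by 2.03 under CA and stood at 0.55 under UDCA (adjusted p = 0.0842). Nrp1, a co-receptor, fell by 1.25 under CA and 1.02 under UDCA. In all, 5 of 7 genes of this list were higher and 1 lower under CA, and 4 higher and 2 lower under UDCA, with medians of 2.03 under CA and 0.79 under UDCA.

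Retinoid genes, the metabolism Lrat belongs to, split. Of 18 tested, 5 rose and 10 fell in CA knockouts and 5 rose and 2 fell in UDCA knockouts, with medians of -0.61 under CA and -0.03 under UDCA. The median on single arrays followed the dye, running from 0.37 to 1.04 on CA arrays 1 to 3, with knockout in Cy5, and from -1.28 to -0.78 on CA arrays 4 to 6, with knockout in Cy3. Under UDCA it ran from 0.26 to 0.49 on arrays 1 to 3 and from -0.45 to -0.25 on arrays 4 to 6. Those that fell under CA included the carboxylesterases Ces1f at -2.89 (adjusted p = 1.91e-06) and Ces1e at -2.17 (adjusted p = 1.85e-05), and the retinol dehydrogenase Rdh11 at -1.58 (adjusted p = 2.17e-08). Cyp26a1, which degrades retinoic acid, rose by 1.01 in CA knockouts (adjusted p = 0.000987) and by 2.38 in UDCA knockouts (adjusted p = 1.46e-06), and was called lower under CA than under UDCA by 1.38 (adjusted p = 0.00440). Aldh1a2, which makes retinoic acid, rose by 1.16 under CA and 0.90 under UDCA, and Cyp26b1 by 1.08 under CA and 0.92 under UDCA. Most of the genes that fell are expressed in hepatocytes as well. Intermediate filament genes beyond Vim and Des rose in 6 of 10 cases under CA and 5 of 10 under UDCA, with 0 lower. The size of their median on single arrays also followed the dye, though it stayed above 0. Under CA it ran from 1.56 to 1.76 on arrays 1 to 3 and from 0.16 to 0.41 on arrays 4 to 6. Under UDCA it ran from 0.58 to 1.02 on arrays 1 to 3 and from 0.18 to 0.45 on arrays 4 to 6. Krt19, a bile duct keratin, rose by 2.76 under CA and 1.53 under UDCA, and Nes, the nestin of activated stellate cells, by 1.74 under CA and 0.57 under UDCA.

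Markers of other cells were read beside these results. Of all genes, 37.8% were called higher and 22.4% lower under CA, and 17.2% higher and 8.77% lower under UDCA. Cholangiocyte genes, of the cells the portal fibroblasts surround, were higher in 8 of 10 cases under CA and 6 of 10 under UDCA, with medians of 2.94 under CA and 1.17 under UDCA, and Sox9 rose by 3.69 under CA and 1.26 under UDCA. Macrophage genes were higher in 6 and lower in 3 of 10 cases under CA, and higher in 6 and lower in 1 under UDCA, with medians of 1.54 under CA and 0.68 under UDCA. Ccr2, of recruited monocytes, rose by 4.15 under CA and 1.46 under UDCA. The Kupffer cell lectin Clec4f fell by 3.37 under CA and stood at -0.18 under UDCA (adjusted p = 0.658). Mesothelial genes were higher in 4 of 6 cases under CA and 1 of 6 under UDCA, the UDCA call and the largest CA estimate being those of Krt19, which the cholangiocyte list also holds. Endothelial genes were higher in 3 and lower in 2 of 10 cases under CA, and higher in 1 and lower in 1 under UDCA. Their shares called higher lay below those of all genes in both diets, and their medians were -0.02 under CA and 0.09 under UDCA. Of 5 genes of neurons and glia, which also make Reln and Thy1, 2 rose and 1 fell under CA and 1 rose and 1 fell under UDCA. Hepatocyte genes had medians of -0.38 under CA and -0.50 under UDCA, with 3 of 9 lower under CA and 2 of 9 under UDCA. On single arrays their median was above 0 with knockout in Cy5, from 1.51 to 1.89 under CA and from 0.94 to 1.72 under UDCA, and below 0 with knockout in Cy3, from -2.22 to -1.94 under CA and from -2.87 to -0.57 under UDCA. Of the 3 pancreas genes tested, 3 fell under CA (median -1.30) and 0 were called under UDCA (median -0.08), and 2 were called lower under CA than under UDCA. Their median stood at -3.56 on CA array 3 and -3.23 on CA array 4, while CA arrays 1, 2, 5 and 6 ran from -0.50 to -0.24. These 2 arrays lay on slide 2. CA array 3 was the lowest CA array for Acta2 and Des, and the highest for Lrat (1.50). CA array 4 was the lowest for Tagln, Vim, Pdgfrb, Thy1 and Cygb, but not for Acta2, Pdgfra, Lrat, Reln or Des. The part of these cells in the marker values was not tested. Over the arrays the cholangiocyte median ran from 1.72 to 3.82 under CA and from 0.47 to 1.83 under UDCA, and the macrophage median from 0.41 to 2.37 under CA and from 0.25 to 1.09 under UDCA.

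**Figure D5:**
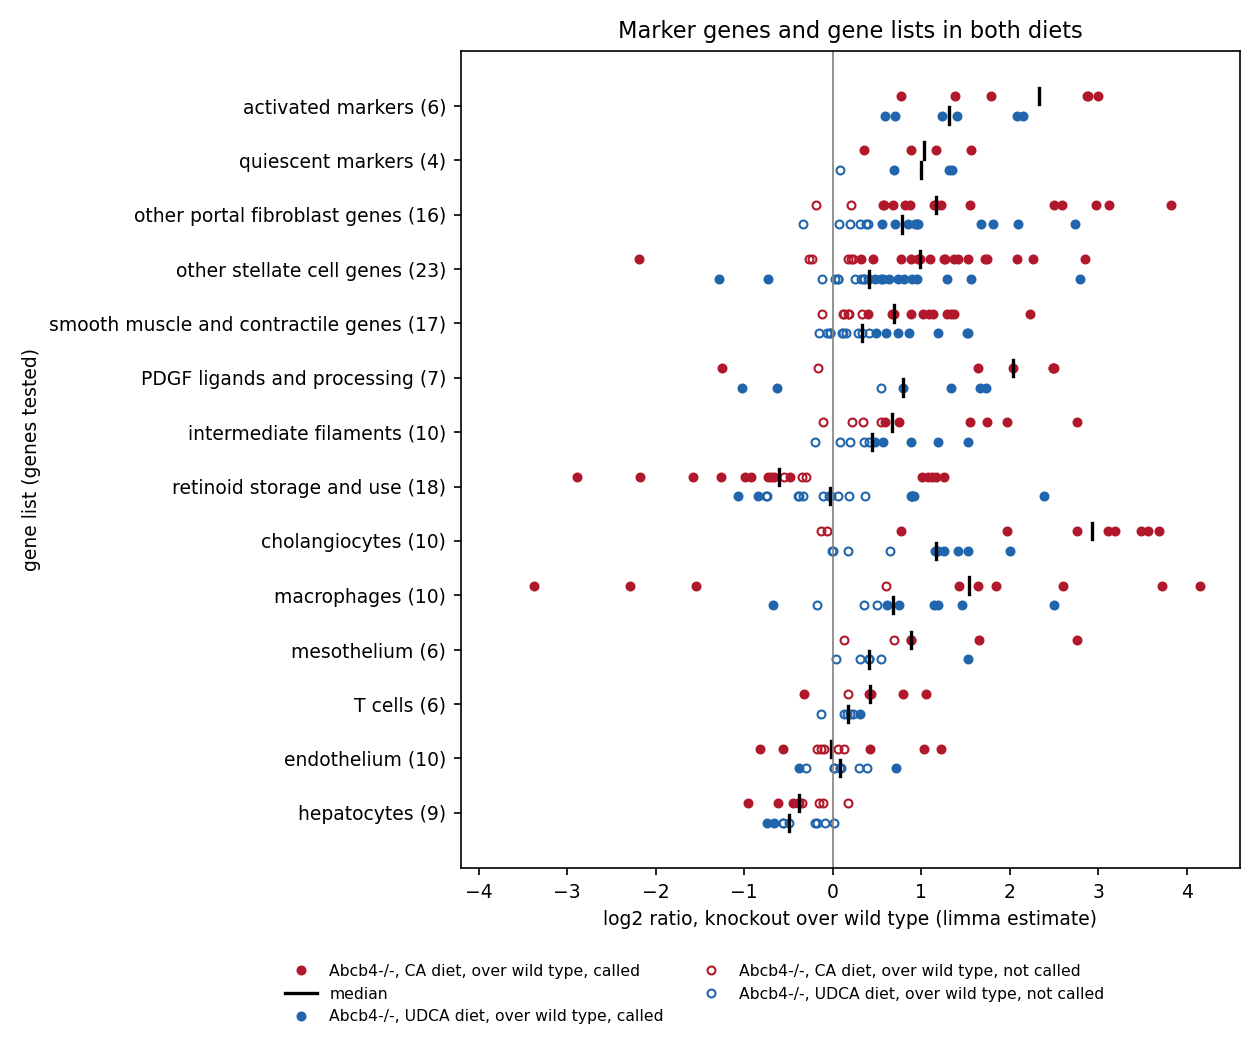
Limma estimates of the log2 ratio, knockout over wild type (horizontal axis), for each tested gene of the marker groups and of the other gene lists (rows, number of genes tested in parentheses). Red points are Abcb4-/- CA and blue points Abcb4-/- UDCA, filled where called at an adjusted p under 0.05, and black bars are medians, which are 2.33 under CA and 1.32 under UDCA for the activated markers, and 1.03 under CA and 1.0 under UDCA for the quiescent ones.

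The genes most like Acta2 and Lrat across the 12 arrays were found by Pearson correlation of dye-adjusted ratios among 14197 genes. For the brighter Acta2 probe they were Gnai2 (0.97), Pkd1 (0.97), Wdr82 (0.97), Srpk1 (0.96) and Mad1l1 (0.96). Gnai2, an inhibitory G protein subunit, rose by 1.29 in CA knockouts (adjusted p = 3.30e-06) and by 0.48 in UDCA knockouts (adjusted p = 0.0310), while the other 4 were not called in either diet. For Lrat they included 6330404A07Rik (0.89), Pros1 (0.87), Plekha5 (0.83) and Cdh11 (0.82). Pros1, the anticoagulant protein S, rose by 1.0 under CA and 0.66 under UDCA. Likeness over so few arrays describes these arrays alone.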

How the data were processed

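Liver RNA was hybridised on 12 Agilent 2-colour arrays on 5 slides. The spot intensity values deposited by the authors are Feature Extraction 9.5.3 mean signals and local backgrounds, per the file headers, in scanner units, with log10 ratios beside them. The deposited series values are log2 ratios. Their correlation with the scanner log ratios (red over green) turned sign with the dye within each diet, and in opposite senses in the 2 diets. The CA columns were so read as wild type over knockout and turned before use as an alternative, with column medians from -0.046 to 0.049, and how they were scaled and centred is unknown.

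With limma 3.58.1 in R 4.3.3, spots were corrected with normexp (offset 50) and loess within arrays, control spots having no weight. Spots of a probe were averaged. Probes well above background on at least 5 of 6 arrays of either channel in either diet were tested in 1 model with diet and dye terms, with Benjamini-Hochberg adjustment. Dye orientation was balanced, 3 arrays each way per diet.

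The members and gene lists were chosen with earlier results of these data known. From each list, up to 4 called genes with the largest changes per comparison could be named, and Myh11, Cnn1 and the other actins were chosen after their values were seen. The number of arrays limits the precision. Alternatives were offsets, normalizations, filters, saturation, slide and replicate blocks and leaving out each array. Among the genes most like Lrat, 1 is not reported here.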

Additional observations from a re-analysis of the deposited data

Results flagged for a closer look

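The diet difference was called by limma's contrast for 5 activated markers, as CA minus UDCA log2 ratios to wild type: 0.78 for Acta2, 0.56 for Tagln, 0.80 for Vim, 1.48 for Pdgfra and 0.85 for Pdgfrb. On UDCA array 6 Thy1 stood at 1.41, farther from the other 5 UDCA arrays than Dixon's 95% limit allows, a limit that chance passes in about 1 of 20 groups.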

How the results depend on the processing

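Estimates against wild type kept their direction under all alternatives run. The calls of Tagln, Vim, Pdgfra, Pdgfrb, Thy1, Reln and Cygb against wild type passed in each alternative that tested them. Pdgfra and Des were not tested where signal above background was required in both channels on all arrays. Scaling between arrays turned the diet differences of Thy1 to -0.093, Lrat to -0.00035 and Cygb to -0.11, and leaving out 1 array moved that of Thy1 between -0.066 (without CA array 5) and 0.21 (without UDCA array 6). The narrow marker pair turned the UDCA score to -0.11 and gave 0.56 under CA. The cause was not tested. The number of markers called higher under CA than UDCA (5) became 2 with the scanner's own processed signals, 3 with an offset of 16, 1 with median centring, 1 with scaling between arrays, 3 without the dye term, 3 with the slide as a fixed block, and 2 to 5 when 1 array was left out. With the replicate block it was 3, Tagln (adjusted p = 0.0526) and Vim (adjusted p = 0.0577) being lost, and without the filter Tagln was lost (adjusted p = 0.0643). The replicate numbers did not pair the samples (correlations of -0.58 to 0.12 between same-numbered arrays).

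Probes called higher and lower were 7416 and 5503 under CA, 3265 and 1820 under UDCA, and 3561 and 2282 between the diets. Median centring gave 4939 and 1202 under CA, 1866 and 110 under UDCA, and 689 and 126 between the diets. Scanner-processed signals gave 2832 lower under UDCA, and the deposited values 3588 lower between the diets. Slide as a fixed block gave 1339 and 630 between the diets. Requiring signal above background in both channels on all arrays, which tests fewer probes, gave 3229 higher under CA, 1971 under UDCA and 1491 between the diets. The CA score under that filter, which drops Pdgfra and Des, was 0.57. Des and the 7 dim probes are limited by signal near background, and Vim and Pdgfrb by saturation on 3 CA arrays each. The brightest probes of Acta2, Reln and Cygb were saturated in the knockout channel on 1 CA array each.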
